A study of Mus musculus with 3 samples.

Results

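Hmga1, Hmga2, Igf2bp1, Igf2bp2, Igf2bp3, Lin28b and Mycn are genes of fetal growth, and their RNA was followed here through mouse molar development. The members were all probe sets whose only gene symbol in the platform annotation was one of these 7 names. This gave 18 probe sets of 5 genes, among 45101 probe sets and 18193 named genes in all. Hmga1 and Igf2bp2 had no such probe set and were not analysed here. The tissue was the dental papilla, the mesenchyme inside the tooth germ from which pulp and odontoblasts form, taken from the first molars of the lower jaw of ICR mice, an outbred strain. Papillae were dissected at embryonic day 16 (E16), embryonic day 18 (E18) and postnatal day 3 (P3), with no further treatment or genotype given. Each stage was 1 RNA pool from more than 20 papillae on 1 array. There were no replicates, so no difference below has a p-value or a standard error, and each describes single arrays.

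The Hmga proteins bind the minor groove of AT-rich DNA through AT-hooks and alter chromatin shape. Igf2bp proteins bind mRNAs, Igf2 mRNA among them, and govern their stability, transport and translation. Lin28b binds precursors of the let-7 microRNAs and blocks their maturation, and let-7 in turn represses Hmga2, Igf2bp1, Igf2bp3, Lin28b and Mycn. Mycn is a transcription factor of the Myc family that drives proliferation of embryonic cells, and most of these genes are low in adult tissues.

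Hmga2, Igf2bp1, Igf2bp3 and Mycn were all lower at P3 than at E16 in the probe sets that could be measured. Signals below are array signals recovered from the deposited ratios, and a probe set counted as measured between 2 stages when 1 or both reached a floor of 82.0, the median signal. Signals of middle rank above about 739, as for the brightest probe sets of Hmga2 and Igf2bp3, may be too low by a common factor, which leaves their fold differences as they are. Of the 18 probe sets 13 reached the floor somewhere, and 5 stayed below it at every stage, among them the single one for Lin28b. On both arrays at or above the floor were 10 probe sets, and all 10 were lower at P3, 5 of them by 2-fold or more. Their median log2 difference, P3 minus E16, was -1.07. Among all probe sets at or above the floor on both arrays, 62.2% were lower at P3 by any amount. In the other 3 measured probe sets only the E16 array of this pair reached the floor, so they could only come out lower. With these included, 13 of 13 were lower by any amount (60.0% of all measured probe sets). Past 2-fold, 6 of 13 were lower and 0 higher, where 15.0% of all measured probe sets were lower and 6.20% higher. In the 13 probe sets the highest signal was at E16 in 11 and at E18 in 2, and the lowest was at P3 in 8 and at E18 in 3. In the remaining 2 both later stages were below the floor and have no order. The same counts over all probe sets were not made, so these do not set the members apart. Some of the 11 were near ties with E18, 1.01-fold for Igf2bp1 1459825_x_at and 1.07-fold for Igf2bp3 1433731_at. The first was higher at E18 after quantile normalization and median scaling (0.07 and 0.08 on the log2 scale). The second was so after median scaling (0.0067). Quantile normalization and median scaling moved the median of all probe sets from -0.16 to 0.00 and 0.09. All 13 were lower at P3 under both, but the 3 with only the E16 array at or above the floor could only come out so. Past 2-fold lower were 5 and 4, the bound of Igf2bp1 1459825_x_at included. Over all genes, 1281 of 12188 and 1178 of 12344 were then past 2-fold lower, against 1903 of 12188 as deposited. The spread between probe sets of one gene, an SD of 0.61 on the log2 scale over 3981 genes, was the only measure of error. It misses any error that a whole pool or array shares.

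**Figure D1:**
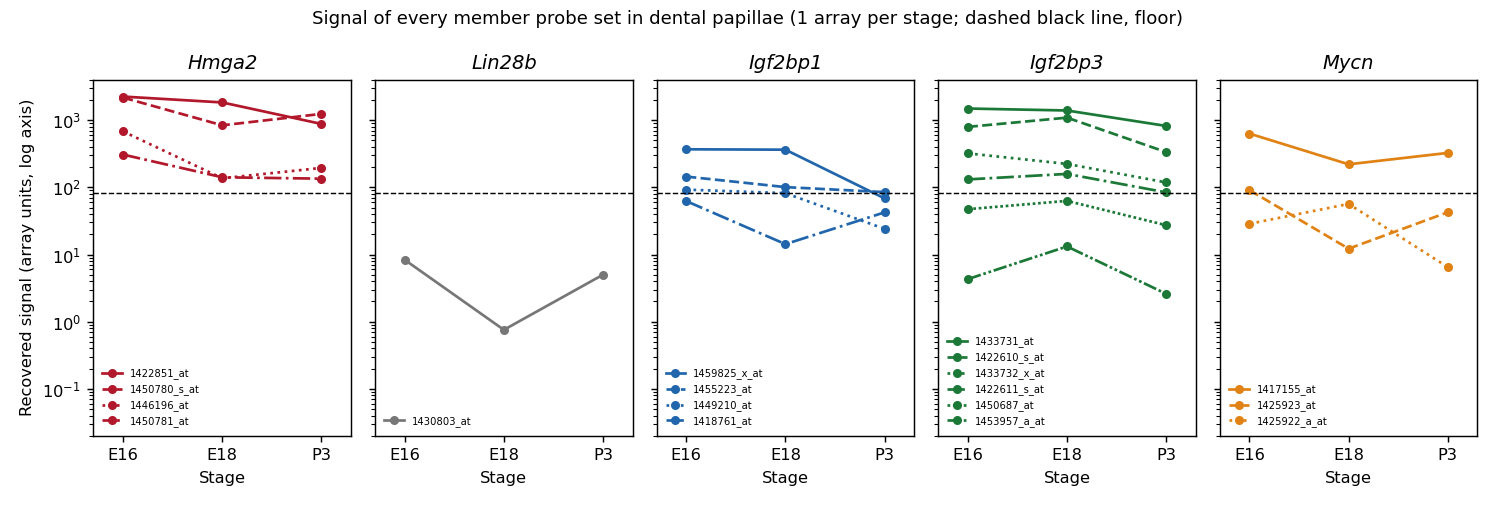
Recovered signal (log axis, array units) of each probe set at E16, E18 and P3, 1 array per stage, 1 panel per gene, with the floor of 82.0 as a dashed line. All 4 Hmga2 lines are highest at E16, the 4 Igf2bp3 lines above the floor are lowest at P3, and the Lin28b line lies below the floor throughout.

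Hmga2 encodes the AT-hook protein that sets body size in mice, where its loss gives the pygmy phenotype. Its brightest probe set, 1422851_at, read 2246 at E16, 1837 at E18 and 879 at P3. A second, 1450780_s_at, read 2168 at E16, 838 at E18 and 1239.9 at P3. The third, 1446196_at, read 679, 136 and 195 at E16, E18 and P3. All 3 were highest at E16, but the first stayed high at E18 while the other two were already low there. The fourth, 1450781_at, read 307, 141 and 135 at these stages, with E18 and P3 nearly level. At P3 against E16 the 4 differences were 2.56-fold, 1.75-fold, 3.49-fold and 2.28-fold lower, in the order given. Their mean log2 difference was -1.29 ± 0.41 (SD over the 4 probe sets of 1 pair of arrays, which are not replicates). As deposited, each exceeded the SD of 0.61 between probe sets in general. After quantile normalization and median scaling 1450780_s_at did not, at -0.50 and -0.51, while the other Hmga2 probe sets still did. The probe sets thus shared the direction at P3 and differed in when the signal became low.

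At E18 against E16, Hmga2 by its brightest probe set was 1.22-fold lower and 2.59-fold, 4.98-fold and 2.18-fold lower by the others, with a mean log2 difference of -1.27 ± 0.83. At P3 against E18 the brightest was 2.09-fold lower. Both 1450780_s_at and 1446196_at were higher, 1.48-fold and 1.43-fold, and 1450781_at was 1.05-fold lower. So 3 of 4 probe sets already had the low signal at E18, and the sign of the later step depended on the probe set. That step was also under 2-fold in the brightest one after quantile normalization (-0.59 on the log2 scale) and median scaling (-0.88), against -1.06 as deposited. Hmga2-ps1, a pseudogene with a probe set of its own, is another name in the annotation and was not counted. The 250 bases upstream of the Hmga2 start are shown because Hmga2 had the most probe sets past 2-fold, and because 70.8% of them are C or T, in long CT runs. Capitals mark a GC box, GGGCGG or its reverse complement CCGCCC, which 32.7% of 32817 mouse promoter windows of this length hold. The sequence is from RefSeq, build GRCm38.p6, chr10:120476470-120476719, minus strand.
Hmga2: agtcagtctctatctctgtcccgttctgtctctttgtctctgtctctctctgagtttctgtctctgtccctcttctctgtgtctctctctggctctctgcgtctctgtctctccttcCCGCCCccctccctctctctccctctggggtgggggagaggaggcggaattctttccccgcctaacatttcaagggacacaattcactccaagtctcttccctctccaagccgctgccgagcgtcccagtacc

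Igf2bp3 encodes an mRNA-binding protein with KH domains that is made in the embryo and again in many tumours. The brightest probe set, 1433731_at, read 1491 at E16, 1393 at E18 and 821 at P3. The next, 1422610_s_at, read 795, 1090.4 and 335 at E16, E18 and P3. Both were lowest at P3, and they differed over whether E16 or E18 was the higher. The 1433732_x_at probe set read 320.3, 223 and 118 at E16, E18 and P3, and 1422611_s_at read 131, 158 and 84.1. All 4 were thus lowest at P3. At P3 against E16 they were 1.82-fold, 2.37-fold, 2.71-fold and 1.56-fold lower, a mean log2 difference of -1.05 ± 0.36 (SD over 4 probe sets). At P3 against E18 they were 1.70-fold, 3.26-fold, 1.89-fold and 1.88-fold lower, with a mean of -1.07 ± 0.43. After quantile normalization and median scaling, the brightest was -0.53 and -0.57 on the log2 scale at P3 against E16, within the spread of 0.61. At P3 against E18 it was -0.35 and -0.58. For 1422611_s_at, P3 against E16 was -0.61 and -0.35, while 1422610_s_at and 1433732_x_at stayed past that spread under both scalings. All of these, unlike 1433731_at, carry a suffix (_s_at or _x_at) for probes that can match other transcripts. The Igf2bp3 decreases past 2-fold were thus only in probe sets of shared sequence. At E18 against E16 there were 2 on either side of 0, between -0.52 and 0.46 on the log2 scale, within the spread of 0.61 between probe sets for that pair of arrays. Of its other 2 probe sets, 1450687_at read 47.3, 62.9 and 27.3 and 1453957_a_at read 4.31, 13.2 and 2.6 at E16, E18 and P3. Both lay below the floor throughout, and no difference is given for them.

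Igf2bp1 encodes the family member that transports beta-actin mRNA in motile cells. Its brightest probe set, 1459825_x_at, read 369 at E16, 364 at E18 and 68.5 at P3. The P3 value was below the floor, so the decrease was at least 4.49-fold against E16 and at least 4.43-fold against E18. The suffix marks probes that can match other transcripts. The 1455223_at probe set read 145, 101 and 84.9 at E16, E18 and P3, 1.70-fold lower at P3 than at E16. The 1449210_at probe set read 92.4, 81.9 and 24.1 at the same stages, which puts P3 under E16 by at least 1.13-fold. The fourth, 1418761_at, read 62.4, 14.3 and 42.4 and did not reach the floor. The large decrease at P3 thus came from 1 probe set, and without probe sets of shared sequence the log2 difference at P3 against E16 was -0.77 in place of -2.17. At E18 against E16 the 3 measured probe sets ran from -0.52 to -0.02 on the log2 scale, none past 2-fold, and the brightest turned to 0.07 and 0.08 after quantile normalization and median scaling.

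Mycn had 1 probe set above the floor on all arrays. It was 1417155_at, which read 631 at E16, 220.2 at E18 and 325 at P3, so that E18 was the lowest stage. It was 2.87-fold lower at E18 than at E16, 1.48-fold higher at P3 than at E18 and 1.94-fold lower at P3 against E16. The first difference was past 2-fold, as it was in 8.02% of all probe sets, and the other 2 were not. At P3 against E16 the log2 difference was -0.96 as deposited. It was -0.66 after quantile normalization and -0.66 after median scaling, little past the spread of 0.61 between probe sets. The 1425923_at probe set read 90.9, 12.2 and 42.5 at E16, E18 and P3, above the floor only at E16, so that E18 and P3 have no order and E18 was at least 1.11-fold lower than E16. The decrease of Mycn past 2-fold at E18 therefore rests on 1 probe set. The 1425922_a_at probe set read 28.6, 56.6 and 6.5 and was below the floor at each stage. The 250 bases upstream of the Mycn start hold TTTGGCGC, a form of the E2F site, at 2 places. Its reverse complement GCGCCAAA was searched too, and 0.417% of promoter windows hold either. Capitals mark these and 2 GC boxes. A match to letters is a description and not a binding site. The sequence is from RefSeq, build GRCm38.p6, chr12:12941837-12942086, minus strand.
Mycn: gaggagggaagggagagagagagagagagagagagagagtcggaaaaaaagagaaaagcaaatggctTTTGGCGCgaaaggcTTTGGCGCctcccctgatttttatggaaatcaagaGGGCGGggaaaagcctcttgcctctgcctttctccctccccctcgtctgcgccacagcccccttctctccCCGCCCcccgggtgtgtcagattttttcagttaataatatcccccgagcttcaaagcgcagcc

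Lin28b was not detectable at any stage by its only probe set. 1430803_at read 8.32 at E16, 0.756 at E18 and 5.0 at P3, all under the floor, and the 81 values of bacterial control probe sets had a median of 8.83 and a highest value of 70.2. Its paralog Lin28a, which has the same action on let-7, read 35.7, 8.86 and 4.5 at E16, E18 and P3 by its brighter probe set. Signals of this size give no order between stages, and a single dim probe set does not show that the RNA is absent. The let-7 RNAs themselves were not measured on this array. They are shown for the seed they share, bases 2 to 8, printed in capitals, through which they pair with target mRNAs. Of 10 mature mouse let-7 sequences in RefSeq (GRCm38.p6), 9 have the seed GAGGUAG, and 3 of these with let-7j, the exception, are as follows.
mmu-let-7a-5p: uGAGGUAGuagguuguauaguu
mmu-let-7d-5p: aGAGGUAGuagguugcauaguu
mmu-let-7i-5p: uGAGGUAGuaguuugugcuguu
mmu-let-7j: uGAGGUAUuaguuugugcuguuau

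Igf2bp3 and Lin28b both hold CACGTG, the E-box that Myc proteins bind and its own reverse complement, in the 250 bases upstream of their starts. They are 2 of the 6 genes with a window in the table, against 6.02% of all windows, and Hmga1, Hmga2, Igf2bp2 and Mycn do not hold these letters there. The 30 bases around each, with the E-box in capitals, are from RefSeq GRCm38.p6, minus strand, chr6:49214960-49214989 for Igf2bp3 and chr10:45470233-45470262 for Lin28b. The Igf2bp3 E-box begins 23 bases and the Lin28b one 49 bases before the start. No factor's binding was measured.
Igf2bp3: gctgggattcctCACGTGagacgttgattt
Lin28b: aattgacagagtCACGTGtgctcaggggcc

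**Figure D2:**
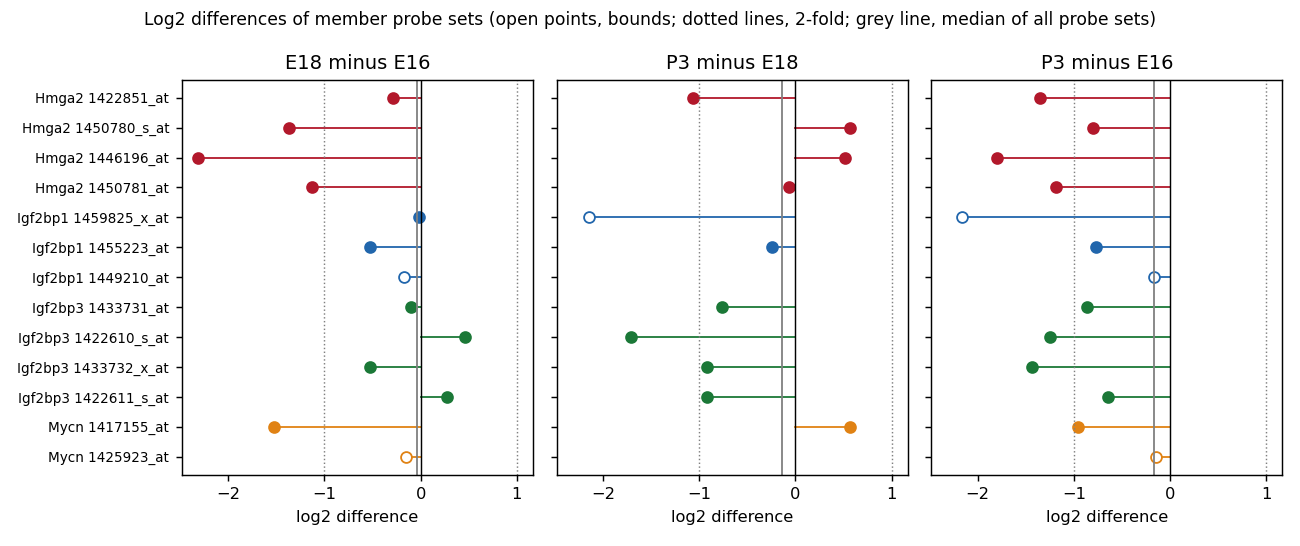
Log2 differences of the 13 probe sets that reached the floor, for E18 minus E16, P3 minus E18 and P3 minus E16. Open points are bounds with 1 array below the floor, dotted lines mark 2-fold and the grey line is the median of all probe sets. The right panel has every point below 0, whereas the left and middle panels have 2 and 3 points above 0.

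By its brightest probe set, each gene gave 1 value per comparison. At P3 against E16, 2 of the 4 measured genes, Hmga2 and Igf2bp1, were past 2-fold lower and 0 were higher, where 15.6% of 12188 genes were lower and 6.58% higher. The median of the 4 was -1.15 on the log2 scale, against -0.17 over all genes. At E18 against E16 only Mycn of the 4 was past 2-fold lower, where 8.13% of 12029 genes were, and 0 were higher (8.11% of all genes). The median was -0.19, against -0.04. At P3 against E18, Hmga2 and Igf2bp1 were past 2-fold lower and 0 were higher, against 11.8% and 4.08% of 12115 genes, with medians of -0.91 and -0.15. By probe set, 4 of 13 were past 2-fold lower and 0 higher at E18 against E16, where 8.02% and 7.77% of all probe sets were. At P3 against E18, 3 of 11 were lower and 0 higher, where 11.0% and 3.86% were. By any amount, 11 of 13 were lower at E18 than E16 (52.8% of all) and 8 of 11 lower at P3 than E18 (59.6% of all). Among those at or above the floor on both arrays the counts were 9 of 11 (53.3% of all) and 7 of 10 (61.6% of all). These counts rest on 4 genes. The 3 comparisons share arrays and are not independent of each other.

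**Figure D3:**
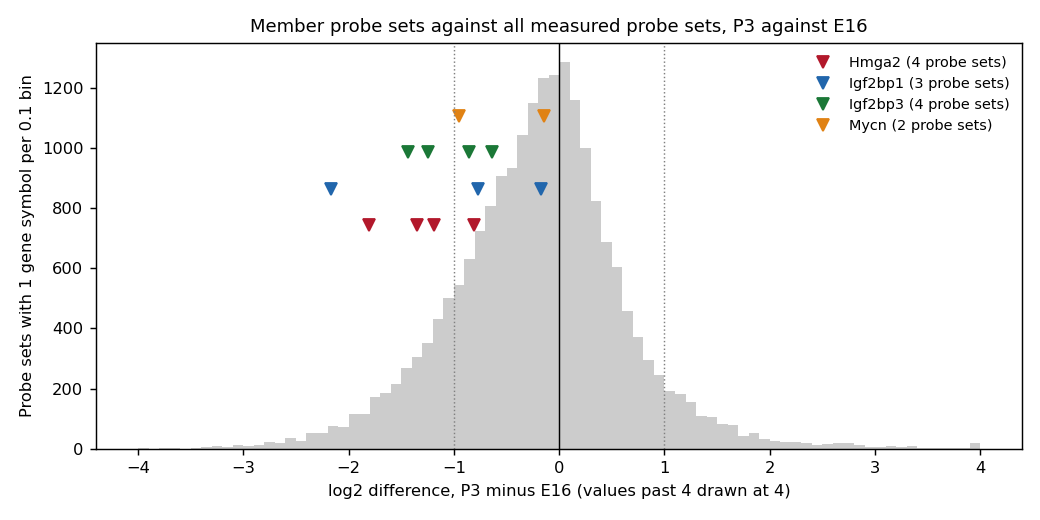
Distribution of log2 differences, P3 minus E16, over the 20504 measured probe sets with 1 gene symbol (grey bars, counts per bin), with the member probe sets as triangles at arbitrary heights. The 13 triangles lie between -2.17 and -0.15, all left of 0.

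The genes whose levels over the 3 stages were most like each member were found by the Euclidean distance between log2 signals centred on their mean, over 3 arrays and 11256 candidate genes. With so many candidates, several lie close to any pattern. Nearest to Hmga2 were Cops5, a subunit of the COP9 signalosome, with signals of 1353, 1116 and 530.1 at E16, E18 and P3, then Otud6b, a deubiquitinase, and Paf1, of the polymerase-associated factor complex (distances 0.0094 to 0.017). Nearest to Igf2bp1 were E2f7, a repressor of the E2F family, with 762, 737 and 169 at the 3 stages, the replication protein gene Rpa2 and Ntmt1 (0.023 to 0.042). Here the P3 value of Igf2bp1 stood at the floor, above its reading of 68.5, so these distances are to a bound. Nearest to Igf2bp3 were Timm10, of mitochondrial protein import, with 905, 836 and 497, Mien1 and Klhl8 (0.013 to 0.015). Nearest to Mycn were Gprasp2, with 788, 273 and 409, the kinase gene Jak1 and Ywhag, a 14-3-3 protein gene (0.014 to 0.026).

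Genes of related pathways are given as counts, to be read beside the 15.6% of all genes that were past 2-fold lower and the 6.58% that were higher at P3 against E16. Genes of the list of Lin28 and let-7 processing were present for the most part. Of 15 listed, 13 were measured at P3 against E16, with 4 past 2-fold lower, 1 higher and a median of -0.49 against -0.17 over all genes. Tut4, a uridylyl transferase that Lin28a recruits, read 1679.8 at E16, 1244 at E18 and 759 at P3, 2.21-fold lower at P3 than at E16. Its 4 other probe sets ran from -1.65 to 1.36 on the log2 scale. Hnrnpa1, which binds let-7 precursors, was 2.60-fold lower, and Prkra, a Dicer partner, 2.13-fold lower. Khsrp, which promotes let-7 processing, was 3.06-fold higher at P3 by the brightest, whereas 2 others gave 0.02 and 0.62 on the log2 scale. Dicer1 read 727, 928 and 865 at E16, E18 and P3, within 2-fold.

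Other genes known as let-7 targets had a median near that of all genes. Members apart, 19 of 27 listed were measured at P3 against E16, 5 past 2-fold lower and 0 higher, with a median of -0.16, close to the -0.17 of all genes. The 4 largest decreases were in the cyclin-dependent kinase gene Cdk6 (3.23-fold, or -0.79 on the log2 scale by a second probe set), E2f2 (at least 2.73-fold), the phosphatase gene Cdc25a (2.26-fold) and E2f6 (2.25-fold). Igf2, whose mRNA the Igf2bp proteins bind, read 1524 at E16, 875 at E18 and 1494.5 at P3, 1.02-fold lower at P3 against E16, and a second probe set gave 0.40 on the log2 scale. Among 16 measured partners and cargo RNAs of the Igf2bp proteins, 3 were past 2-fold lower at P3 against E16 and 0 higher, a share near that of all genes (median -0.12, against -0.17 over all genes). They were Syncrip (2.90-fold), G3bp1 (2.67-fold) and Hnrnpu (2.55-fold), all RNA-binding proteins. For Syncrip and Hnrnpu, other probe sets reached 0.04 and 0.13 on the log2 scale.

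Myc, the relative of Mycn, had its highest signal at the stage where Mycn had its lowest. It read 38.3 at E16, 225 at E18 and 64.3 at P3, above the floor only at E18, which puts E18 over E16 by at least 2.75-fold. Max, the dimer partner of both, was below the floor throughout by its single probe set (73.0, 17.2 and 52.4). Of 10 measured genes of the Myc network 2 were past 2-fold higher and 0 lower at P3 against E16. These were Mxd4, an antagonist that takes Max from Myc proteins, 5.30-fold higher (0.40 on the log2 scale by a second probe set), and Mlxip, 2.63-fold. Targets of Myc proteins in ribosome making and growth were past 2-fold lower in 13 of 20 at P3 against E16, with 0 higher and a median of -1.17. The lactate dehydrogenase gene Ldha was 5.31-fold, the fibrillarin gene Fbl 4.88-fold, the pyrimidine synthesis gene Cad 3.17-fold and the snoRNP gene Nhp2 2.98-fold lower. A second Nhp2 probe set was under 2-fold, at -0.54 on the log2 scale. Nucleolin, Ncl, read 2100.0, 2879 and 1087 at E16, E18 and P3. At P3 against E16 its 4 other probe sets ran from -1.24 to 0.13 on the log2 scale. At E18 against E16 this list had 0 lower and 1 higher, with a median of 0.06. Mycn was past 2-fold lower at that step by 1 probe set. Whether the genes of this list follow Mycn was not tested.

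Among 5 measured non-histone chromatin proteins other than Hmga, Hmgb3 was 5.93-fold lower at P3 against E16 and the others were within 2-fold by their brightest probe sets (median -0.68). Hmgb2 read 1576, 2652 and 982 at E16, E18 and P3, and its 2 other probe sets were past 2-fold lower at P3 against E16, at -1.35 and -1.12 on the log2 scale. Among 13 measured fetal growth genes outside the members, 1 was lower and 1 higher (median -0.03). These were the histone methyltransferase gene Ezh2, 3.79-fold lower, and Cdkn1c, an imprinted inhibitor of cell division, 2.40-fold higher. These calls used the brightest probe sets. Igf1 was 1.95-fold higher by its brightest, and 3 others ran from 0.81 to 1.47 on the log2 scale. Igf2r was at -0.66 by its brightest and 1.17 by another, and 6 other Meg3 probe sets ran from -0.53 to 1.07. Cell cycle genes were lower at P3 as well. Of 24 measured, 21 were past 2-fold lower against E16 (median -2.24), led by the replication helicase gene Mcm7, 16.9-fold by its brightest probe set and -2.69 to -1.70 on the log2 scale by 3 others. The median of 10 housekeeping genes was -0.66, with 3 past 2-fold lower and 0 higher. Whether the members' lower signals go with fewer dividing cells was not tested. In pooled tissue, fewer cells of a type and less RNA per cell cannot be told apart.

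**Figure D4:**
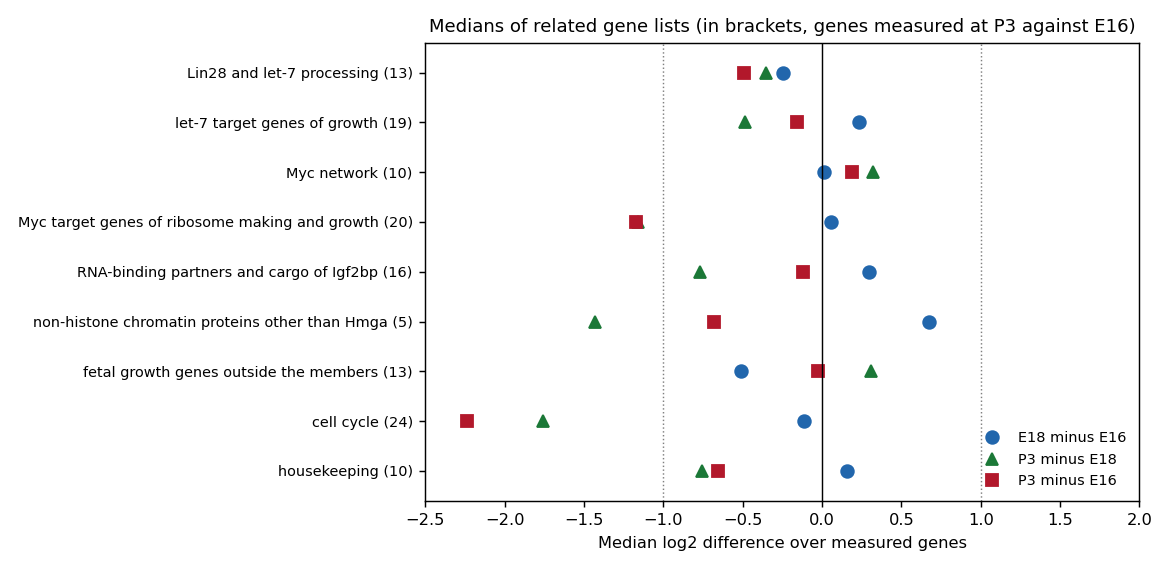
Median log2 difference over the measured genes of 9 related lists, for E18 minus E16 (circles), P3 minus E18 (triangles) and P3 minus E16 (squares), with the number measured at P3 against E16 in brackets and dotted lines at 2-fold. The cell cycle squares and triangles lie farthest to the left, at -2.24 and -1.76. The Myc target list lies at -1.17 and -1.16, and the triangle of the non-histone chromatin proteins at -1.43.

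The tissue and its quality differed between arrays in ways that touch the members. Mesenchyme markers of the tooth were present, 11 of 12 at or above the floor at P3, 11 at E18 and 10 at E16, though 7 of 11 measured were past 2-fold lower and 3 higher at P3 against E16. Of 11 measured at E18 against E16, the step at which Mycn and 3 Hmga2 probe sets were past 2-fold lower, 6 were lower and 1 higher (median -1.49). Of 12 measured epithelial markers 10 were past 2-fold higher at E18 against E16, and their summed signals were 8108, 24957 and 13143 at E16, E18 and P3. Between P3 and E16, 4 of 14 were lower at P3 and 3 higher (median -0.22). The enamel matrix genes Ambn, Amelx and Enam made up 8652 of the P3 sum, and the other 11 markers summed to 7221, 21111 and 4490.4 at the 3 stages. Over 12 macrophage and leukocyte markers the sums were 2225, 4409 and 8634, with 7 of 12 past 2-fold higher and 0 lower at P3 against E16. Erythroid markers went the other way, with sums of 1883, 469 and 440.0 and 3 of 5 lower at P3. At P3 against E16, 1 of 6 endothelial and 1 of 3 neuronal and Schwann cell markers were lower, 2 of 6 cartilage markers were higher and 0 of 3 muscle markers passed 2-fold. Of 7 odontoblast genes 6 were higher and 1 lower. No marker was at a signal of 0. RNA integrity and labelling show in the 3' over 5' ratio, which for actin was 3.87 times its E16 value at E18 and 2.46 times at P3, and for Gapdh 1.42 and 0.355 times. Hybridisation controls were 2.17 times as bright at E18 and 1.04 times at P3 as at E16. The part of these in the members' differences was not tested.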

How the data were processed

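The deposited values are ratios, 1 per probe set and array. The submitters' processing notes name GCOS with no version, and how values were scaled or centred is not given in the sources used here. In 90.4% of probe sets the middle deposited ratio was 1, as when each signal is divided by the middle one. In the other 4347, 99.98% of values were whole steps (within 0.01), which gave factors of 0.718 (E16) and 1.08 (E18) relative to P3. Signals were recovered as the smallest whole numbers of steps matching all 3 ratios within a relative 3e-07. True signals may be whole multiples of these, or otherwise higher, most of all where the middle one is above about 739. As deposited, the fold differences of a probe set above the floor do not depend on this. The choice of a gene's brightest probe set, quantile normalization and median scaling do rest on the recovered signals. Signals below the floor (82.0) were set to it before log2, and 2-fold was the threshold. Names came from the platform annotation (34958 probe sets with 1 symbol, 932 with several, 9160 not listed). A gene's value is that of its probe set with the highest mean signal. With 1 array per stage, only the number of arrays limits precision in a way that can be stated, and no test was possible. The recovery was also run on simulated ratios. These were made with the same steps and division that it assumes, so they cannot show how the deposited ratios were made. Named were all members, the 3 nearest genes to each, and up to 4 genes past 2-fold per list with its best known one. Members and lists were chosen with earlier results of these data known. Tools were numpy 2.4.6, pandas 2.3.3 and numba 0.67.0.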

Additional observations from a re-analysis of the deposited data

How the results depend on the processing

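The 8 alternatives were 2 other scalings, 3 floors and 3 choices of probe set. Of 96 values for single genes, 82 moved by less than the spread between probe sets. Of all 96, 6 changed sign. Past 2-fold as reported, 1 of these was Hmga2 at P3 against E18, 0.22 by the median of its probe sets in place of -1.06 (-0.01 by their mean). The other 5 were near 0 at E18 against E16, Igf2bp1 (-0.02 as reported, 0.07 and 0.08 under the other scalings) and Igf2bp3 (-0.10 as reported, 0.0067 to 0.087 after median scaling and by the mean and median of its probe sets). For Mycn at E18 against E16, the mean of 2 probe sets was -0.83 in place of -1.52, but it includes a bound. The number of members past 2-fold lower at P3 against E18, 2 as reported, was 1 after quantile normalization, after median scaling, by the median of all probe sets and without probe sets of shared sequence. At P3 against E16 it was 1 in place of 2 without probe sets of shared sequence. With no floor, which brings in Lin28b, 2 members were lower at E18 than at E16 in place of 1, and 1 was higher at P3 than at E18 in place of 0. With no floor, counts over all genes were 2175 lower and 2161 higher at E18 against E16, 2566 lower and 1800 higher at P3 against E18, and 2989 lower and 2107 higher at P3 against E16, over 18193 genes and with low values left as they are. As reported they were 978 and 975, 1428 and 494, and 1903 and 802. At P3 against E16 median scaling gave 1178 lower and 1269 higher, so 51.9% of those past 2-fold were higher, against 29.6% as deposited. Quantile normalization gave 1228 higher (48.9%). At P3 against E18 quantile normalization gave 873 lower and 797 higher (47.7%, against 25.7% as deposited), and 759 were higher after median scaling (43.7%), 318 with the floor doubled and 780 with it halved. At E18 against E16 median scaling gave 60.0% higher, against 49.9%. The cause of these shifts was not tested. No paired analysis was possible because each stage has 1 array. With a floor of 82.0, nothing can be said of Lin28b or of the 4 other dim member probe sets.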

Other observations

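Some growth genes of the list outside the members, named after their values were seen, had their lowest signal at E18, as Mycn did. By brightest probe sets Igf2, Igf1 and Sgce were also lowest there. Ezh2, Grb10, Igf2r and Ndn were lowest at P3, and Meg3, Plagl1 and Cdkn1c at E16. The share of all genes lowest at E18 was not counted, so this does not set any of them apart. Gpc3, a heparan sulfate proteoglycan whose loss gives overgrowth, read 1549.6 at E16, 515 at E18 and 811 at P3, 3.01-fold lower at E18 than at E16 by its only measured probe set. Mest, an imprinted gene expressed from the paternal copy, read 2075, 1267 and 2267 at these stages, within 2-fold. For other imprinted genes the probe sets disagreed. Peg3 read 2683, 1299.9 and 3063 by its brightest probe set, 2.06-fold lower at E18 than at E16, but a second gave 0.52 on the log2 scale. Meg3 was 4.78-fold higher at E18 than at E16 by its brightest, while 7 others ran from -0.30 to 0.95 on the log2 scale.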
